A study of Danio rerio with 18 samples.

Results

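akr1a1a-/- zebrafish larvae were compared with ACR-treated akr1a1a+/+ larvae, that is, the loss of an enzyme with exposure to a substrate of it. The comparison holds 12 of the 18 RNA-Seq samples of the study. They were chosen by their labels alone, 6 samples of the akr1a1a-KO genotype without treatment and 6 samples of the WT genotype with acrolein, and no measured value entered the choice. The 6 untreated akr1a1a+/+ samples serve as a further level beside them.

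ACR (acrolein) is a small unsaturated aldehyde that forms when lipids are oxidized. It reacts with thiol groups of glutathione and of proteins. Aldo-keto reductases, aldehyde dehydrogenases and glutathione transferases remove such aldehydes, and the transcription factors Nrf2 and Hsf1 raise detoxifying enzymes, ferritins and chaperones when electrophiles or misfolded proteins build up. Akr1a1a is an NADPH-dependent aldehyde reductase of the aldo-keto reductase family, and zebrafish carry a second gene for it, akr1a1b.

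The akr1a1a-/- larvae came from a single CRISPR-Cas9 line with a small deletion-insertion in exon 2 of akr1a1a. ACR was given to akr1a1a+/+ larvae from 24 to 120 hpf (hours post fertilization). Untreated akr1a1a+/+ larvae were kept alongside. All 3 groups shared the Tg(fli1:EGFP) background, in which a fli1 promoter drives EGFP in vessels, E3 medium with PTU, which suppresses pigment, and collection at 120 hpf. Each sample was total RNA of whole larvae pooled from 1 clutch, so that fewer cells of a type and less RNA per cell cannot be told apart, and p values measure the spread between these pools. All akr1a1a-/- samples were sequenced on lane 3. ACR replicates 1 to 3 were on lane 2 with all untreated samples, and ACR replicates 4 to 6 on lane 3. Where a gene named below was called over all samples but not on lane 3 alone, the lane 3 value is therefore given.

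Total counts were 20247724 to 20463404 per akr1a1a-/- sample, 20001894 to 20362335 per ACR sample and 19878464 to 20174607 per untreated sample. Markers of 12 cell types of the whole larva were read as a check, and each type was detected in both groups. Of 52 marker genes tested, 10 were higher in akr1a1a-/- than in ACR larvae and 1 was lower. Among all genes tested at the same threshold, 6.46% were higher and 7.29% lower. Summed neuronal markers spanned 1445 to 1613 CPM (counts scaled to the library size) in akr1a1a-/- and 1388 to 1741 CPM in ACR samples, and summed liver markers 3605 to 4345 CPM in akr1a1a-/- and 3002 to 3973 CPM in ACR samples, so that both overlapped.

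The mutated gene, akr1a1a (ENSDARG00000035257), was read at 0.306 to 0.741 CPM (median 0.399) in akr1a1a-/- samples, against 2.76 to 3.75 CPM (median 3.34) in ACR samples and 2.32 to 3.41 CPM (median 3.11) in untreated samples. Every akr1a1a-/- sample lay below every ACR sample, so the genotype labels held for all 12. The ACR and untreated ranges overlapped, so this gene could not check the treatment label. The log2 fold change of akr1a1a-/- over ACR was −2.90 ± 0.17 (approximate SE, n = 6 clutches per group), with an adjusted p of 4.22e-10 in edgeR's quasi-likelihood test. The same 6 akr1a1a-/- samples against the 3 ACR samples of lane 3 gave −2.91 (adjusted p = 1.97e-05). Each akr1a1a-/- sample still held 6 to 15 counts of it. Its paralogue, akr1a1b, listed under the symbol AKR1A1 (ENSDARG00000052030), stood at 15.5 to 17.8 CPM (median 17.2) in akr1a1a-/- and 12.8 to 16.8 CPM (median 15.03) in ACR samples. These ranges overlapped and the paralogue did not pass the threshold (log2 fold change 0.18 ± 0.07, adjusted p = 0.121). Reads that match both copies may have been shared between them by the quantification.

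To see how far the mutants and the treated larvae lay apart, principal components were computed from the 22831 genes that passed the count filter in the 12 samples. PC1 held 40.1% of the variance. The akr1a1a-/- samples scored 26.94 to 35.42 on it, and the ACR samples −36.41 to −25.29. The groups did not overlap, and a two-sided exact permutation test gave p = 0.0022, which is the lowest value possible with 6 samples a side. The empty gap between them took 72.7% of the range of PC1. ACR samples of lane 2 scored −36.41 to −33.13 and those of lane 3 −29.04 to −25.29. Those on the mutants' lane thus lay nearer to the mutants. With all 18 samples in 1 analysis, akr1a1a-/- samples scored 39.11 to 46.52 on PC1, ACR samples −25.94 to −15.99 and untreated samples −25.96 to −14.0, so ACR and untreated samples shared one range.

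**Figure D1:**
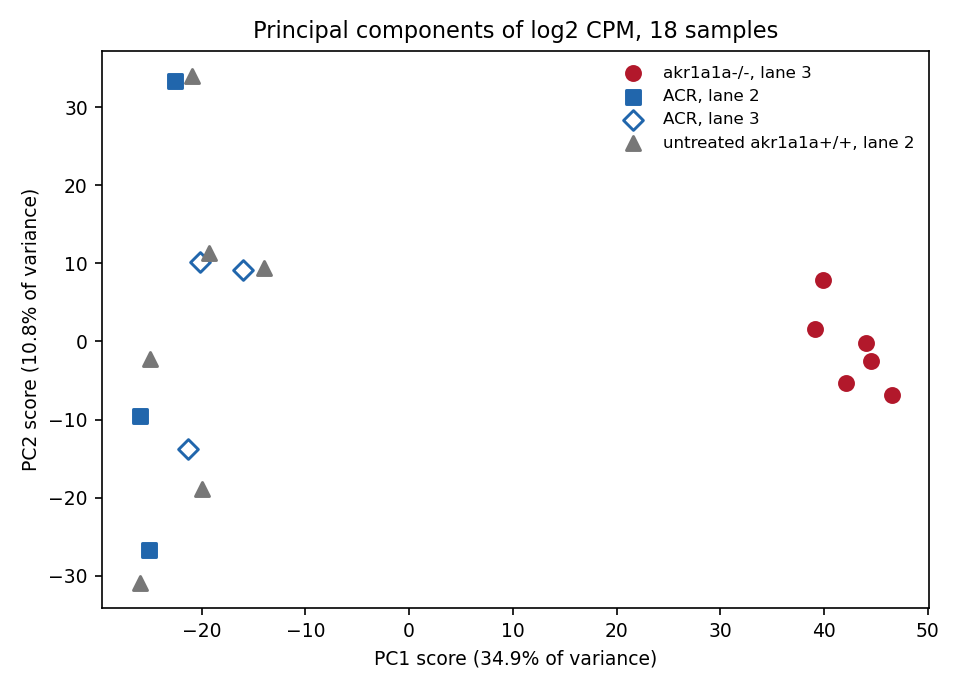
Scores of the 18 samples on the first 2 principal components of log2 CPM, with PC1 on the x axis and PC2 on the y axis. The 6 akr1a1a-/- samples (circles) lie between 39.11 and 46.52 on PC1, the ACR samples of lane 2 (filled squares) and lane 3 (open diamonds) between −25.94 and −15.99, and the untreated akr1a1a+/+ samples (triangles) among the ACR samples.

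Of 23223 genes tested, 3194 differed between akr1a1a-/- and ACR larvae at an adjusted p under 0.05, which is 13.8%. Of these, 1500 were higher in akr1a1a-/- larvae (6.46% of the genes tested) and 1694 were lower (7.29%). Most differences were small: 1874 of the 3194 were under 1.5-fold, and 681 reached 2-fold, 243 of them higher and 438 lower in akr1a1a-/- larvae. In 1423 genes (6.13% of the genes tested) the 6 akr1a1a-/- samples and the 6 ACR samples did not overlap. The balance of higher and lower genes depended on the scaling. On log2(TPM + 1), where the median of all genes lay at −0.062, limma called 857 genes higher and 2554 lower of 24589. Counts for gene lists on this scale, given below, have to be read against this split.

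On lane 3 alone, 6 akr1a1a-/- samples against 3 ACR samples gave 1859 genes out of 23271 (7.99%), 905 higher and 954 lower. Of the 3194 genes, 1505 were also called on lane 3, which is 47.1% of the one list and 81.0% of the other, and all 1505 had the same direction. Both lists share the 6 akr1a1a-/- and 3 of the ACR samples. With lane as a covariate 1980 genes were called. Within the ACR group, replicates 4 to 6 differed from replicates 1 to 3 in 4 genes, with only 3 samples a side. At an unadjusted p under 0.05 edgeR's test gave 2720 genes for this split. The same split gave 2271 genes in untreated and 1696 in akr1a1a-/- samples, where each group stayed on 1 lane.

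The untreated larvae gave a baseline for both groups. In 2969 of the 3194 genes (93.0%), the mean log2 CPM of untreated akr1a1a+/+ larvae was nearer to that of the ACR larvae, and in 225 genes (7.0%) nearer to that of the akr1a1a-/- larvae. Placed on a scale with the akr1a1a-/- mean at 0 and the ACR mean at 1, the untreated mean had a median of 0.94 and quartiles of 0.769 and 1.09. Of the 225 genes nearer to akr1a1a-/-, 147 were lower and 78 higher in akr1a1a-/- than in ACR larvae. The untreated samples shared their genotype with the ACR samples, and lane 2 with 3 of them. Deviations of same-numbered ACR and untreated samples from their group means also correlated, at 0.445 on average.

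**Figure D2:**
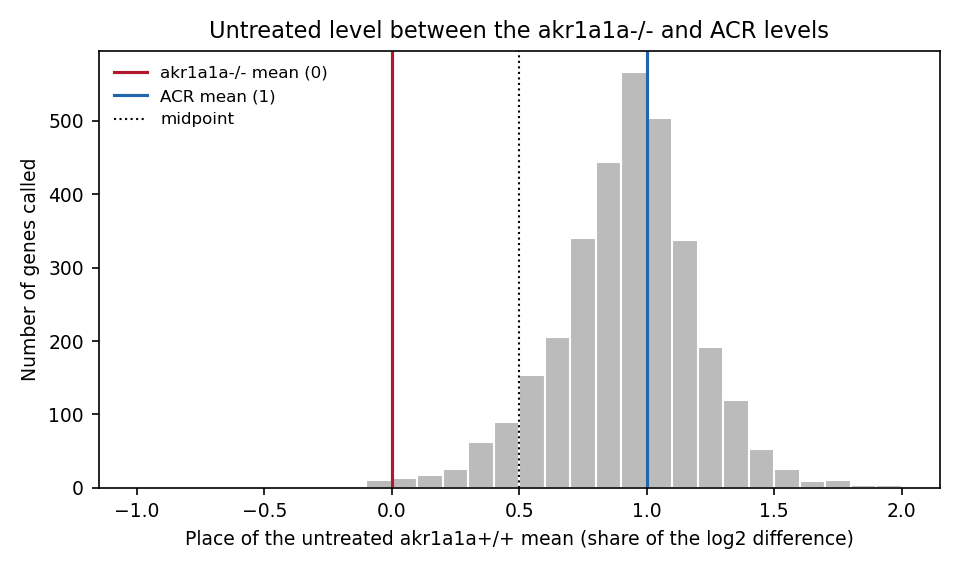
Place of the untreated akr1a1a+/+ mean for the 3194 genes called, as a share of the log2 difference, with 0 at the akr1a1a-/- mean and 1 at the ACR mean. Bars give the number of genes (y axis) per step of 0.1, and values beyond the axis are put in the end bars. The bars peak close to 1, with a median of 0.94.

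Among the 225 genes, the 10 with the largest change, non-overlapping groups and a mean log2 CPM of 1 or more were fthl28, fthl29, fthl30, fthl31, hsp70.1, tcnbb, zgc:163022, C18H15orf48 and the unnamed ENSDARG00000116586 and ENSDARG00000073936. All 10 were lower in akr1a1a-/- than in ACR larvae. In a comparison of ACR with untreated larvae that did not pair same-numbered samples, 6 of 23223 genes were called (0.0258%). Of the 10, fthl29 and zgc:163022 were among these (adjusted p = 0.0494 and 0.00542), and for the other 8 the adjusted p of ACR against untreated larvae was between 0.0609 (tcnbb) and 0.909 (fthl30). The 10 include 4 ferritin-like genes, whose products belong to the family that stores iron, and hsp70.1, a cytosolic Hsp70 chaperone. tcnbb, of the family that carries vitamin B12, was at 180.1 to 252 CPM (median 236) in akr1a1a-/- samples, 339.8 to 685 CPM (median 484) in ACR samples and 176 to 328 CPM (median 271) in untreated samples (log2 fold change −1.14 ± 0.16, adjusted p = 8.61e-05), and zgc:163022 at 21.5 to 35.7, 53.9 to 141 and 20.5 to 47.3 CPM in these groups (log2 fold change −1.81).

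fthl29 was at 2.604 to 7.58 CPM (median 3.39) in akr1a1a-/- samples, against 17.5 to 87.2 CPM (median 25.6) in ACR samples and 3.55 to 14.9 CPM (median 4.07) in untreated samples. Every ACR sample was above every akr1a1a-/- sample and every untreated sample. The log2 fold change of akr1a1a-/- over ACR was −3.30 ± 0.48 (adjusted p = 8.88e-05) and −2.37 on lane 3 (adjusted p = 0.000332). The 3 ACR samples of lane 2 held 23.6 to 87.2 CPM and those of lane 3 17.5 to 27.7 CPM. Replicates 1 and 2 were the highest ACR samples, at 74.3 and 87.2 CPM. They were also the highest akr1a1a-/- samples, all on lane 3, at 5.78 and 7.58 CPM. The same held for the untreated samples, all on lane 2, at 10.8 and 14.9 CPM. fthl28 reached 6.99 to 25.5 CPM (median 11.04) in akr1a1a-/- samples, 53.4 to 142 CPM (median 92.2) in ACR samples and 12.6 to 64.9 CPM (median 18.6) in untreated samples, where 1 untreated sample exceeded the lowest ACR sample. Its log2 fold change was −2.83 ± 0.40 (adjusted p = 7.83e-05). fthl31 was at 10.9 to 20.2 CPM (median 12.9) in akr1a1a-/- and 41.2 to 81.8 CPM (median 47.1) in ACR samples. Untreated samples were at 8.86 to 36.2 CPM (median 10.8) (log2 fold change −1.92 ± 0.31, adjusted p = 0.00027). fthl30 spread more, at 0.357 to 18.1 CPM (median 8.91) in akr1a1a-/- and 21.6 to 81.1 CPM (median 43.6) in ACR samples. Its untreated samples, at 4.403 to 35.3 CPM (median 13.8), reached into the ACR range (log2 fold change −2.38 ± 0.52, adjusted p = 0.00379). All these genes were chosen for non-overlapping akr1a1a-/- and ACR samples, so that separation is not a further result. These ferritin-like copies are close relatives, and reads may have been split between them.

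fth1a, the abundant ferritin heavy chain gene, went the other way. It was at 943 to 1250.3 CPM (median 1091) in akr1a1a-/- samples, 769.8 to 893 CPM (median 821) in ACR samples and 716 to 834 CPM (median 737) in untreated samples. No akr1a1a-/- sample fell within the ACR range, and the log2 fold change was 0.42 ± 0.06 (adjusted p = 6.64e-05).

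Inducible Hsp70 genes were also lower in akr1a1a-/- than in ACR larvae, and hsp70.3 and HSPA2 were among the 6 genes called between ACR and untreated larvae (adjusted p = 0.0168 and 0.0187). hsp70.3 was at 16.01 to 20.4 CPM (median 18.2) in akr1a1a-/- samples, 20.4 to 82.2 CPM (median 59.3) in ACR samples and 17.2 to 25.97 CPM (median 22.4) in untreated samples. The lowest ACR sample, replicate 6 on lane 3, lay at the level of the highest akr1a1a-/- sample and within the untreated range, while the other 5 were above both. The log2 fold change was −1.60 ± 0.21 (adjusted p = 2.87e-05), with −1.37 on lane 3 (adjusted p = 0.0056). hsp70.1 had 3.78 ± 0.773 CPM in akr1a1a-/- larvae, against 9.83 ± 2.45 CPM in ACR larvae and 4.96 ± 1.21 CPM in untreated larvae (SD, n = 6 each), and HSPA2, another Hsp70 family member, had 17.7 ± 2.797, 38.1 ± 9.42 and 20.97 ± 1.64 CPM in these groups. Both were lower in akr1a1a-/- than in ACR larvae, with log2 fold changes of −1.38 ± 0.18 (adjusted p = 3.68e-05) and −1.10 ± 0.14 (adjusted p = 1.87e-05). In the list of heat shock proteins and chaperones, 6 of 107 members were higher and 11 lower in akr1a1a-/- larvae, or 15.9% against 13.8% of all genes, with 2 higher and 14 lower on log2(TPM + 1), and 11 in all without ACR replicate 1. The small heat shock gene hspb15 differed in its pattern: 4.69 to 5.64 CPM (median 4.84) in akr1a1a-/- samples, 7.24 to 9.28 CPM (median 8.18) in ACR samples and 7.21 to 8.44 CPM (median 7.83) in untreated samples, so that the mutants were the group apart (log2 fold change −0.70 ± 0.08, adjusted p = 3.09e-06).

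SQSTM1 encodes p62, an autophagy receptor that also binds Keap1, the inhibitor of Nrf2. It stood at 48.3 to 56.8 CPM (median 51.4) in akr1a1a-/- samples, 59.01 to 125 CPM (median 102) in ACR samples and 49.4 to 97.8 CPM (median 53.3) in untreated samples. Every ACR sample was above every akr1a1a-/- sample, and 2 untreated samples also reached the ACR range (log2 fold change of akr1a1a-/- over ACR −0.91 ± 0.17, adjusted p = 0.000918). BACH1, a repressor of heme oxygenase and ferritin genes that is released by heme, was at 25.7 to 33.6 CPM (median 29.8) in akr1a1a-/-, 35.3 to 59.6 CPM (median 46.7) in ACR and 31.9 to 45.5 CPM (median 36.02) in untreated samples (log2 fold change −0.68 ± 0.11, adjusted p = 0.000259). prdx1 (ENSDARG00000058734), a peroxiredoxin, had 39.6 ± 7.36 CPM in akr1a1a-/-, 62.5 ± 17.2 CPM in ACR and 41.4 ± 8.62 CPM in untreated larvae (SD, n = 6 each). Its log2 fold change was −0.66 (adjusted p = 0.0124) over all samples and −0.34 on lane 3, where it did not pass (adjusted p = 0.205). In all 3 groups replicates 1 and 2 held the highest prdx1 values.

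**Figure D3:**
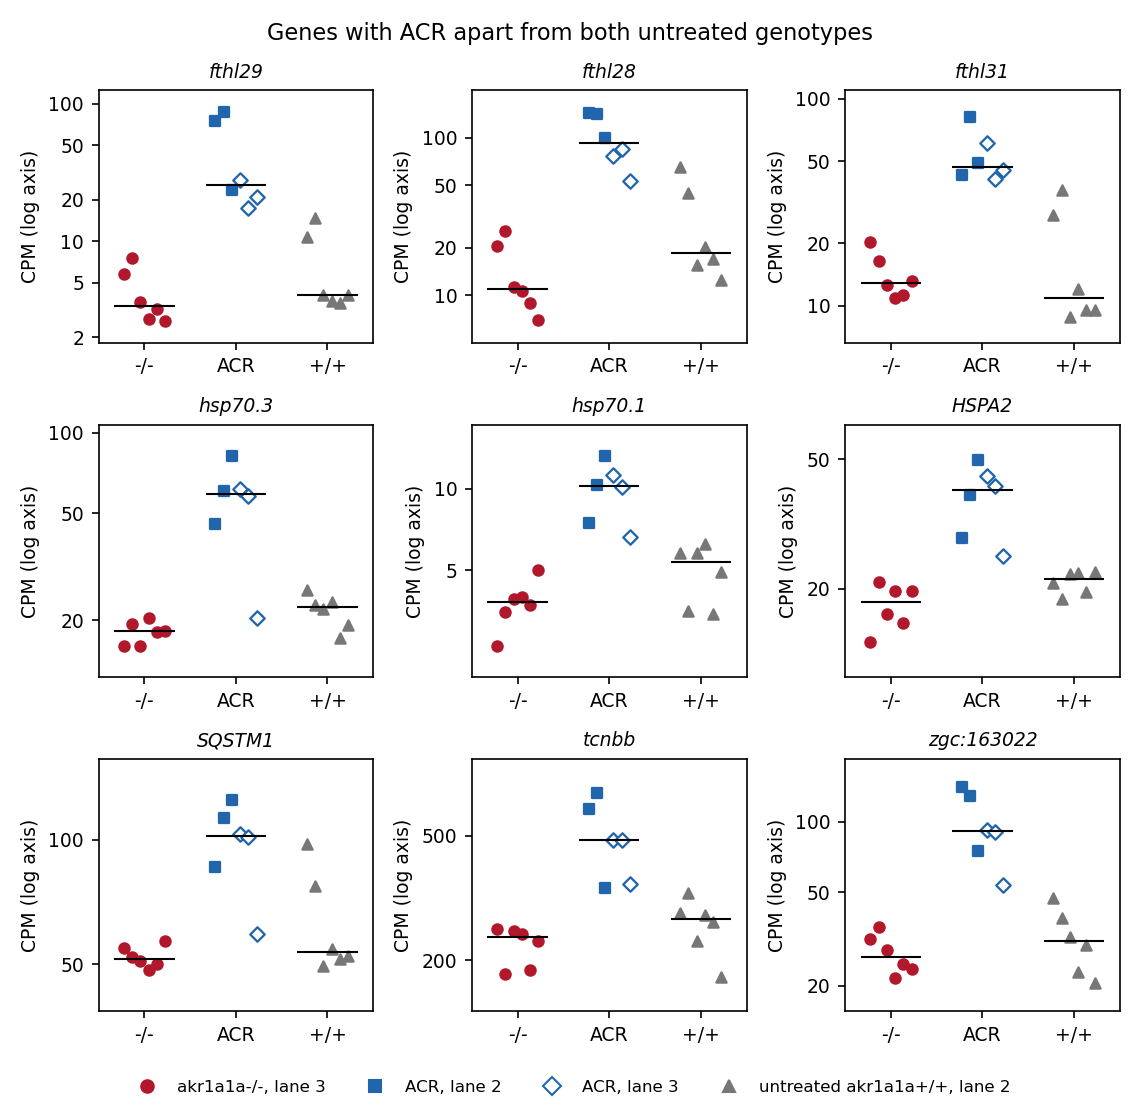
Levels of 9 genes in each sample, in CPM on log axes, for akr1a1a-/- (circles, lane 3), ACR (squares, lane 2, and open diamonds, lane 3) and untreated akr1a1a+/+ larvae (triangles, lane 2), with a line at each group's median. In every panel the ACR median is the highest, and ACR replicate 6 of hsp70.3 lies at 20.4 CPM beside the akr1a1a-/- samples.

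The list of electrophile response genes, which holds Nrf2 targets, glutathione enzymes and ferritins, split in both directions. Of 67 members, 9 were higher and 14 lower in akr1a1a-/- than in ACR larvae, 34.3% in all against 13.8% of all genes, and on lane 3 16 passed. Members did not form one pattern. gpx1b, a glutathione peroxidase, was at 4.34 to 6.25 CPM (median 5.4) in akr1a1a-/-, 7.75 to 14.9 CPM (median 11.5) in ACR and 5.98 to 12.2 CPM (median 9.87) in untreated samples (log2 fold change −1.13 ± 0.16, adjusted p = 8.88e-05). NQO1, a quinone reductase and a common readout of Nrf2, was instead higher in akr1a1a-/- larvae, at 59.4 to 105 CPM (median 66.9), than in ACR larvae, at 44.1 to 59.5 CPM (median 47.1), with untreated larvae at 33.7 to 48.3 CPM (median 43.5) (log2 fold change 0.59 ± 0.12, adjusted p = 0.00264, or 0.0624 against ACR replicates 1 to 3 alone). gstt1b, a glutathione transferase, showed the largest rise of the list, at 10.9 to 30.5 CPM (median 18.03) in akr1a1a-/- and 5.5 to 8.15 CPM (median 6.24) in ACR samples with no overlap (log2 fold change 1.48). GCLC, which encodes the catalytic subunit for glutathione synthesis, had a mean of 54.3 CPM in akr1a1a-/- and 57.1 CPM in ACR larvae and did not pass (adjusted p = 0.676).

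The pair gstp1.1 and gstp1.2, which encode pi-class glutathione transferases, differed from each other. gstp1.1 was at 16.3 to 77.6 CPM (median 21.2) in akr1a1a-/- and 5.23 to 21.8 CPM (median 12.7) in ACR samples. The call (log2 fold change 1.27, adjusted p = 0.0227) was lost without akr1a1a-/- replicate 2, which held the highest value (log2 fold change 0.77, adjusted p = 0.0747), and without ACR replicate 5 (adjusted p = 0.051). It also did not pass on lane 3 (adjusted p = 0.096), against ACR replicates 1 to 3 (adjusted p = 0.154) or on log2(TPM + 1) (limma, adjusted p = 0.0609). gstp1.2 was at 229 to 442 CPM (median 274) in akr1a1a-/-, 289 to 680.4 CPM (median 403) in ACR and 219 to 405 CPM (median 261) in untreated samples and did not pass (log2 fold change −0.57, adjusted p = 0.0796). Both genes were named after their values were seen.

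Enzymes of aldehyde clearance were called about as often as all genes when both directions were counted. Of the 36 members tested, akr1a1a included, 5 were lower and 0 higher in akr1a1a-/- larvae (13.9%, near the 13.8% of all genes). Of all genes, 7.29% were lower and 6.46% higher. ptgr1.1 encodes a prostaglandin reductase of a family that also reduces unsaturated aldehydes. It was at 9.599 to 12.8 CPM (median 11.05) in akr1a1a-/- samples, 14.3 to 36.6 CPM (median 26.7) in ACR samples and 11.5 to 39.9 CPM (median 26.96) in untreated samples. No akr1a1a-/- sample reached the ACR range, and the log2 fold change was −1.30 ± 0.24 (adjusted p = 0.000826), with −1.21 on lane 3 (adjusted p = 1.7e-05). The lowest wild-type values came from replicate 2 of both the ACR and the untreated group. aldh3a2a, a fatty aldehyde dehydrogenase, differed by −0.23 ± 0.06 on the log2 scale (adjusted p = 0.0196), which did not pass on lane 3 (adjusted p = 0.099). cbr1l, a carbonyl reductase, averaged 80.5 ± 14.5 CPM in akr1a1a-/-, 106 ± 15.4 CPM in ACR and 85.1 ± 10.1 CPM in untreated larvae (SD, n = 6 each), and its call (adjusted p = 0.0233) was also lost on lane 3 (adjusted p = 0.255) and without akr1a1a-/- replicate 5 or 6 or ACR replicate 1 or 2 (adjusted p of 0.0546 to 0.0565). In all 3 groups replicates 1 and 2 held the highest cbr1l values. DCXR, a dicarbonyl reductase, completed the 5. Its log2 fold change was −0.52 (adjusted p = 0.0246), and the call was lost without ACR replicate 4 (adjusted p = 0.0619) and without akr1a1a-/- replicate 3 or 4 (adjusted p = 0.0515 and 0.0513), on lane 3 (adjusted p = 0.0509) and against ACR replicates 1 to 3 (adjusted p = 0.0806).

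Several genes of iron handling and heme synthesis were higher in akr1a1a-/- than in ACR larvae. Cells take up iron through transferrin receptors, export it through ferroportin, and use it for heme, whose first step is catalyzed by ALAS1 in most tissues and by alas2 in red blood cells. tfr1a and tfr1b, both transferrin receptor genes, were at 25.1 to 49.5 CPM (median 40.8) and 61.9 to 141 CPM (median 100.4) in akr1a1a-/- samples, against 14.4 to 27.3 CPM (median 16.2) and 37.9 to 47.3 CPM (median 42.1) in ACR samples and 11.1 to 18.4 CPM (median 15.2) and 28.4 to 41.5 CPM (median 32.1) in untreated samples. For tfr1b the akr1a1a-/- and ACR samples did not overlap, and for tfr1a only ACR replicate 1 reached the akr1a1a-/- range. The log2 fold changes were 1.15 ± 0.17 (adjusted p = 8.02e-05) and 1.24 ± 0.15 (adjusted p = 1.24e-05).

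ALAS1 was at 516 to 991 CPM (median 790.0) in akr1a1a-/- samples, 226 to 338 CPM (median 298) in ACR samples and 195 to 326 CPM (median 249) in untreated samples. Its lowest mutant value exceeded the highest ACR value, and the log2 fold change was 1.42 ± 0.14 (adjusted p = 8.16e-07), or 1.34 on lane 3 (adjusted p = 0.000446). alas2 was at 22.6 to 100.3 CPM (median 60.9) in akr1a1a-/-, 11.1 to 26.2 CPM (median 14.9) in ACR and 8.93 to 24.5 CPM (median 20.5) in untreated samples, where 2 ACR samples exceeded the lowest mutant sample (log2 fold change 1.83 ± 0.33, adjusted p = 0.000741). The alpha-type embryonic globin gene hbae3 was at 278 to 422 CPM (median 325) in akr1a1a-/-, 48.3 to 233 CPM (median 84.6) in ACR and 56.1 to 276 CPM (median 211) in untreated samples. It passed over all samples (log2 fold change 1.55 ± 0.39, adjusted p = 0.0103) and on lane 3 (adjusted p = 0.0176) but not with lane as a covariate (adjusted p = 0.1).

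Of the 29 members of the erythroid and heme list, 7 were higher in akr1a1a-/- larvae and 0 lower, or 24.1% against 13.8% of all genes, and 22 were not called. The median log2 fold change of the list was 0.39. Of the 7, hbae5 and epb41b did not pass on lane 3 (adjusted p = 0.182 and 0.109), and hbae5 not without any 1 of 8 samples (adjusted p of 0.0653 to 0.104). klf1, the erythroid transcription factor, averaged 5.76 ± 1.79 CPM in akr1a1a-/-, 2.87 ± 1.04 CPM in ACR and 2.73 ± 0.887 CPM in untreated larvae (SD, n = 6 each; adjusted p = 0.00921, or 0.0871 against ACR replicates 1 to 3 alone). The 4 red blood cell markers summed to 77.88 to 253.5 CPM in akr1a1a-/-, 70.5 to 189.5 CPM in ACR and 48.85 to 139.9 CPM in untreated samples. Of the 4, 1 passed, alas2, which is itself in the erythroid and heme list. hbae1.1 and SLC4A1 (ENSDARG00000024560) lay lower without passing, with log2 fold changes of −0.37 and −0.18 (adjusted p = 0.637 and 0.654). SLC4A1 (ENSDARG00000012881) lay higher without passing, at 0.64 (adjusted p = 0.224). How far the number of red blood cells took part was not tested.

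Outside the erythroid and heme list, and named after their values were seen, transferrin (tfa) was at 1388 to 1832 CPM (median 1679.6) in akr1a1a-/-, 1012 to 1272 CPM (median 1209) in ACR and 1021 to 1329 CPM (median 1159) in untreated samples, and the ferroportin gene SLC40A1 at 114 to 161 CPM (median 134), 85.4 to 106 CPM (median 94.6) and 80.2 to 106 CPM (median 85.8) in these groups. In both genes the akr1a1a-/- and ACR samples did not overlap, with log2 fold changes of 0.46 ± 0.08 (adjusted p = 0.000489) and 0.50 ± 0.08 (adjusted p = 0.000304). MELTF encodes a membrane-bound relative of transferrin that binds iron. It was at 39.8 to 159 CPM (median 69.4) in akr1a1a-/- and 9.99 to 25.1 CPM (median 23.1) in ACR samples. Untreated samples were at 12.4 to 34.6 CPM (median 22.02) (log2 fold change of akr1a1a-/- over ACR 2.01 ± 0.30, adjusted p = 0.000106). hamp, the gene of hepcidin, which blocks iron export, was scarce, at 0.0988 to 0.511 CPM in akr1a1a-/- and 0.197 to 1.11 CPM in ACR samples, and did not pass (adjusted p = 0.0972).

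**Figure D4:**
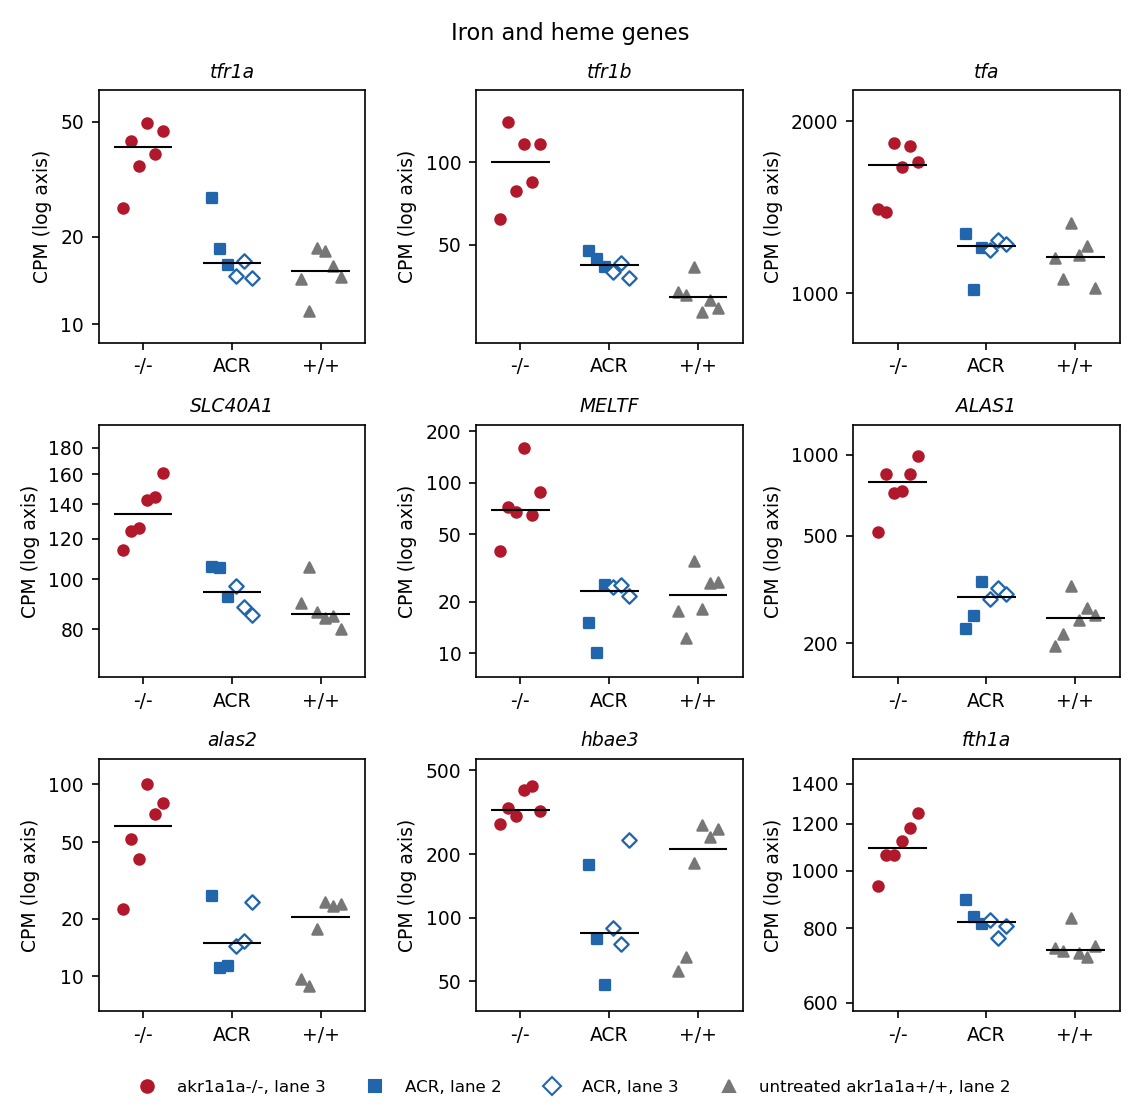
Levels of 9 iron and heme genes in each sample, in CPM on log axes, for akr1a1a-/- (circles), ACR (squares, lane 2, and open diamonds, lane 3) and untreated akr1a1a+/+ larvae (triangles), with a line at each group's median. The akr1a1a-/- median is the highest in every panel. In tfr1b, tfa, SLC40A1, MELTF, ALAS1, hbae3 and fth1a no akr1a1a-/- sample falls into the ACR range.

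The largest differences, among genes with a mean log2 CPM of 1 or more, mostly set the mutants apart from both wild-type groups. The 12 largest falls with a gene symbol, non-overlapping groups and a mean log2 CPM of 1 or more were fthl29, cbln13, KCNK5, ctss2.2, fthl28, znf1179, znf1028, TIMP4, znf1156, fthl30, znf1143 and SV2C. The ferritin-like genes among them are described above. KCNK5, a potassium channel gene, was at 3.32 to 5.12 CPM (median 3.702) in akr1a1a-/- samples, 24.7 to 43.3 CPM (median 36.6) in ACR samples and 28.1 to 44.8 CPM (median 33.6) in untreated samples. ACR and untreated ranges overlapped closely, and the akr1a1a-/- samples lay far below both (log2 fold change over ACR −3.18 ± 0.16, adjusted p = 3.29e-11). cbln13, a member of the cerebellin family, was at 0.64 to 1.43 CPM (median 1.102) in akr1a1a-/-, 7.99 to 11.4 CPM (median 10.02) in ACR and 8.24 to 10.02 CPM (median 8.95) in untreated samples (log2 fold change −3.23). SV2C, a synaptic vesicle protein gene, was at 1.26 to 2.42 CPM (median 1.82) in akr1a1a-/-, 7.83 to 8.53 CPM (median 8.07) in ACR and 6.13 to 8.92 CPM (median 8.14) in untreated samples (log2 fold change −2.16).

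ctss2.2 encodes a cathepsin S, a lysosomal protease. It was at 0.59 to 2.25 CPM (median 1.23) in akr1a1a-/-, 9.37 to 14.2 CPM (median 11.9) in ACR and 8.42 to 11.6 CPM (median 10.3) in untreated samples (log2 fold change −3.09 ± 0.21, adjusted p = 4e-09). TIMP4 (ENSDARG00000100795), an inhibitor of matrix metalloproteinases, was at 0.504 to 1.92 CPM (median 1.26) in akr1a1a-/- and 5.03 to 11.5 CPM (median 6.47) in ACR samples (log2 fold change −2.51, adjusted p = 1.61e-05), while a second gene with that symbol (ENSDARG00000111805) was higher in akr1a1a-/- larvae (log2 fold change 0.69).

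The 4 zinc finger genes were all lower in akr1a1a-/- larvae. znf1179 was at 8.598 to 36.5 CPM (median 16.7) in akr1a1a-/- samples, against 120.0 to 134 CPM (median 122) in ACR and 109 to 135 CPM (median 119) in untreated samples. Its mutant samples fell into a lower set, with replicates 1, 3 and 5 at 8.6, 9.23 and 9.82 CPM, and a higher set, with replicates 2, 4 and 6 at 23.6, 27.6 and 36.5 CPM. znf1156 split the same samples, with 0.247, 0.395 and 0.463 CPM in akr1a1a-/- replicates 1, 3 and 5, and 2.02, 2.62 and 2.76 CPM in replicates 2, 4 and 6, against 6.91 to 9.12 CPM in ACR samples. znf1028 and znf1143 did not split, at 0.59 to 1.21 and 2.17 to 3.497 CPM in akr1a1a-/- samples and 5.23 to 6.56 and 10.1 to 16.5 CPM in ACR samples. The log2 fold changes of znf1179, znf1156, znf1028 and znf1143 were −2.69, −2.50, −2.63 and −2.27.

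The 12 largest rises were ccdc125, MELTF, myhc4, ITLN1, igflr1, ppa1a, SLC38A9, elovl8b, znfl1l, ANXA1, hbae3 and THNSL2. ccdc125, a coiled-coil protein gene, was at 8.06 to 13.5 CPM (median 10.1) in akr1a1a-/- samples, 0.734 to 1.55 CPM (median 0.987) in ACR samples and 0.74 to 1.47 CPM (median 1.18) in untreated samples. It was 9.47-fold higher in akr1a1a-/- than in ACR larvae (log2 fold change 3.24 ± 0.17, adjusted p = 6.42e-11). ANXA1, the gene of annexin A1, which limits inflammation, was at 125 to 232 CPM (median 185) in akr1a1a-/-, 54.3 to 67.2 CPM (median 58.2) in ACR and 47.7 to 58.3 CPM (median 54.6) in untreated samples (log2 fold change 1.58 ± 0.11, adjusted p = 4.62e-09). SLC38A9 encodes a lysosomal amino acid sensor of the mTORC1 pathway. It was at 11.2 to 31.1 CPM (median 21.9) in akr1a1a-/-, 5.74 to 7.54 CPM (median 6.598) in ACR and 5.68 to 7.85 CPM (median 6.44) in untreated samples, and its spread among the mutants was wide (log2 fold change 1.72 ± 0.19, adjusted p = 3.03e-06).

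ITLN1, an intelectin that binds microbial sugars, was at 7.61 to 14.7 CPM (median 10.4) in akr1a1a-/- and 1.87 to 4.29 CPM (median 2.64) in ACR samples (log2 fold change 1.92), and itln3 of the same family was all but absent from ACR samples. THNSL2, igflr1, a receptor gene, and ppa1a, an inorganic pyrophosphatase gene, averaged 4.003 ± 1.49, 3.902 ± 0.675 and 5.62 ± 1.13 CPM in akr1a1a-/- larvae and 1.404 ± 0.358, 1.13 ± 0.384 and 1.68 ± 1 CPM in ACR larvae (SD, n = 6 each). elovl8b, a fatty acid elongase, was at 8.83 to 10.3 CPM (median 9.701) in akr1a1a-/- and 0.734 to 6.802 CPM (median 3.12) in ACR samples. znfl1l was at 12 to 15.1 CPM (median 13.04) in akr1a1a-/- and 0.147 to 6.39 CPM (median 5.45) in ACR samples. For both genes the lowest ACR sample was replicate 3, and the lowest untreated sample was also replicate 3, at 0.75 CPM for elovl8b and 0.35 CPM for znfl1l. The call of elovl8b was lost against ACR replicates 1 to 3 alone (adjusted p = 0.0586), and that of znfl1l with lane as a covariate (adjusted p = 0.143) and on log2(TPM + 0.1) (limma, adjusted p = 0.0547).

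In a few genes one group was at or under 3 counts in every sample. All 6 ACR samples were at or under this floor and all 6 akr1a1a-/- samples above it in 5 genes, and the reverse held in 18 genes. itln3 was at 21 to 134 counts in akr1a1a-/- samples and 0 to 2 in ACR samples, so it was at least 26.8-fold higher in akr1a1a-/- larvae against the floor of 3 counts per library. mhc1zka, an MHC class I gene, was at 13 to 53 counts in akr1a1a-/- and 0 to 2 in ACR samples, at least 8.61-fold higher. Of a pair of genes with the symbol CCDC134, ENSDARG00000103285 was at 6.35 to 15.4 CPM in akr1a1a-/- and 0 to 0.241 CPM in ACR samples, and ENSDARG00000030508 the other way at 0 to 1.75 CPM in akr1a1a-/- and 1.78 to 3.52 CPM in ACR samples, which did not pass on lane 3 (adjusted p = 0.0571). Where genes have near-identical copies, the quantification may have moved reads from one ID to the other.

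Immune genes of families that vary between fish lines differed in both directions. In the antigen presentation list 6 of 40 members were higher and 9 lower in akr1a1a-/- larvae (37.5%, against 13.8% of all genes). The count was 3 members when only genes with at least 10 counts in every sample were tested. MHC class I molecules show peptides to T cells, and zebrafish haplotypes carry different sets of them. mhc1uba was at 0 to 0.197 CPM in akr1a1a-/-, 1.98 to 3.95 CPM in ACR and 1.84 to 4.098 CPM in untreated samples, and mhc1lfa at 0 to 0.197, 0.489 to 2.17 and 0.35 to 2.501 CPM in these groups. In both genes the mutant samples held at most 4 counts, while ACR and untreated ranges overlapped. mhc1zca was instead higher in akr1a1a-/- larvae, at 10.5 to 14.5 CPM (median 13.8), than in ACR larvae, at 2.59 to 8.25 CPM (median 4.83) (log2 fold change 1.39 ± 0.18, adjusted p = 2.72e-05). In the list of NOD-like receptor, TRIM and other expanded immune families, 10 of 83 members were higher and 11 lower. This was 25.3%, against 13.8% of all genes, and on log2(TPM + 1) 7 were higher and 7 lower. trim35-29 was at 0.771 to 2.16 CPM in akr1a1a-/- and 0.289 to 0.444 CPM in ACR samples, nlrc11 at 10.7 to 23.98 and 28.9 to 38.1 CPM, and ftr24 at 4.15 to 5.71 and 6.22 to 7.41 CPM in these groups. Genotype was fixed within each group of clutches, so line differences outside akr1a1a and the loss of akr1a1a cannot be told apart.

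Muscle genes were more often higher in the mutants. In the muscle contraction list 21 of 111 members were higher and 9 lower in akr1a1a-/- than in ACR larvae (27.0%, against 13.8% of all genes). The median log2 fold change of the list was 0.09, and 24 members were called on lane 3. ACTA1, a skeletal actin gene, was at 1542 to 2298 CPM (median 1979.9) in akr1a1a-/- samples, 931 to 1262 CPM (median 1075) in ACR samples and 907 to 1264 CPM (median 1061) in untreated samples. Its ranges were apart (log2 fold change 0.85 ± 0.11, adjusted p = 1.75e-05), as were those of actc1a, a cardiac-type actin gene, at 268 to 355 CPM (median 298) in akr1a1a-/- and 107 to 208 CPM (median 150.4) in ACR samples. myhc4, a fast myosin heavy chain gene, was at 38.1 to 62.7 CPM (median 51.1) in akr1a1a-/-, 4.05 to 18.1 CPM (median 14.2) in ACR and 2.84 to 28.2 CPM (median 17.1) in untreated samples (log2 fold change 1.96 ± 0.35). mybpha, a myosin binding protein gene, averaged 42.9 ± 4.48 CPM in akr1a1a-/- and 27.5 ± 2.13 CPM in ACR larvae (SD, n = 6 each).

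Not all muscle genes went this way. pvalb4, a parvalbumin that buffers calcium in fast fibers, was lower in akr1a1a-/- larvae, at 568 to 637 CPM (median 594), than in ACR larvae, at 788 to 1076 CPM (median 923), with untreated larvae at 791 to 1019.7 CPM (median 896) (log2 fold change −0.63 ± 0.07, adjusted p = 3.95e-06). The defining markers actc1b and ckma, far more abundant, did not pass, with log2 fold changes of 0.17 and 0.13.

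Genes of glucose use and of the respiratory chain were more often higher than lower in akr1a1a-/- larvae. In the glucose metabolism list 13 of 79 members were higher and 2 lower (19.0%, against 13.8% of all genes), or 8 and 4 on log2(TPM + 1). PYGM, the muscle glycogen phosphorylase, was at 139 to 211 CPM (median 153) in akr1a1a-/- samples, 69.9 to 105 CPM (median 78.7) in ACR samples and 70.8 to 96.4 CPM (median 81.4) in untreated samples. The groups did not overlap, and the log2 fold change was 0.97 ± 0.11 (adjusted p = 7.39e-06). PGAM2, the muscle phosphoglycerate mutase, averaged 164 ± 15.4 CPM in akr1a1a-/- and 110.2 ± 15.6 CPM in ACR larvae, LDHA, a lactate dehydrogenase, 386 ± 30.5 and 272 ± 33.7 CPM, and SLC2A10, a glucose transporter, 2.86 ± 0.411 and 1.25 ± 0.193 CPM (SD, n = 6 each). Several of these enzymes are those of muscle, and PYGM and PGAM2 were higher along with the muscle genes above. What share of their change came from muscle was not tested.

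In the respiratory chain list 25 of 126 members were higher and 4 lower (23.0%, against 13.8% of all genes), and 27 were called on lane 3. On log2(TPM + 1) the split was 16 higher and 9 lower. NDUFS8, a complex I subunit, was at 171 to 215 CPM (median 199) in akr1a1a-/- and 143 to 159 CPM (median 147) in ACR samples with no overlap (log2 fold change 0.38 ± 0.05, adjusted p = 6.47e-05). COX5B, a complex IV subunit, averaged 13.4 ± 1.96 CPM in akr1a1a-/- and 7.14 ± 1.62 CPM in ACR larvae, while COX7C, of the same complex, averaged 52.5 ± 5.32 and 82.4 ± 4.34 CPM (SD, n = 6 each) and was lower (log2 fold change −0.65 ± 0.07, adjusted p = 3.15e-06). For comparison, 3 of 82 cytosolic ribosomal protein genes were higher and 0 lower (3.7%), against 1 higher and 1 lower on log2(TPM + 1) and 7 called without akr1a1a-/- replicate 2, with RPL12 at 1049 ± 82.2 CPM in akr1a1a-/- and 792 ± 64.7 CPM in ACR larvae. rps20 was also higher, with a log2 fold change of 0.22, and did not pass on lane 3 (adjusted p = 0.167).

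Few insulin receptor signaling genes were called. Insulin binding activates the receptor, insulin receptor substrates, PI3-kinase and Akt. Of 99 members tested, 2 were higher and 7 lower in akr1a1a-/- than in ACR larvae, or 9.1% against 13.8% of all genes. On log2(TPM + 1) the list had 0 higher and 12 lower, where all genes also leaned lower, with 857 higher and 2554 lower of 24589. On that scale 80.8% of the members lay below 0, against 65.9% of all genes. INSR (ENSDARG00000011948) was at 74.6 to 85.2 CPM (median 76.7) in akr1a1a-/- samples, 83.3 to 90.9 CPM (median 85.9) in ACR samples and 92.4 to 98.1 CPM (median 96.1) in untreated samples. The akr1a1a-/- range reached into the ACR range by 1 sample, and the log2 fold change was −0.15 ± 0.04 (adjusted p = 0.0138). It did not pass against ACR replicates 1 to 3 alone (log2 fold change −0.105, adjusted p = 0.182). Against untreated larvae the log2 fold change was −0.29 for akr1a1a-/- (edgeR, adjusted p = 5.0e-05), where lane differed too. For ACR it was −0.14 and did not pass (edgeR, adjusted p = 0.847). Both comparisons share the untreated samples. The test of ACR did not pair same-numbered samples, and every ACR sample lay below every untreated sample. The second receptor gene (ENSDARG00000071524) was at 30.4 to 37.8 CPM (median 32.7) in akr1a1a-/- and 28.8 to 38.1 CPM (median 35.2) in ACR samples and did not pass (log2 fold change −0.03 ± 0.08, adjusted p = 0.838). inppl1b, a lipid phosphatase that opposes PI3-kinase, averaged 6.49 ± 1.15 CPM in akr1a1a-/- and 9.66 ± 0.534 CPM in ACR larvae (log2 fold change −0.57, adjusted p = 0.000271). FLOT1, a lipid raft protein gene, and CBLB, a ubiquitin ligase gene, followed with log2 fold changes of −0.21 and −0.18, and CBLB did not pass on lane 3 (adjusted p = 0.0662). The insulin gene ins was at 11.4 to 16.8 CPM (median 12.1) in akr1a1a-/- and 9.65 to 16.9 CPM (median 12.1) in ACR samples and did not pass (log2 fold change 0.11, adjusted p = 0.651).

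Genes of lipid transport and of the liver were divided. In the list of lipoproteins and lipid transport 12 of 56 members were higher and 9 lower in akr1a1a-/- larvae (37.5%, against 13.8% of all genes). On log2(TPM + 1) 6 were higher and 9 lower, and edgeR's count fell to 13 without ACR replicate 5. apoea, an apolipoprotein E gene, was at 294 to 371 CPM (median 325) in akr1a1a-/- samples, 146 to 219 CPM (median 204) in ACR samples and 132 to 187 CPM (median 164) in untreated samples (log2 fold change 0.80 ± 0.10, adjusted p = 1.75e-05). apoa4a, of the intestine, averaged 10.8 ± 3.01 CPM in akr1a1a-/- and 5.35 ± 0.947 CPM in ACR larvae, DGAT1, which makes triglycerides, 17.3 ± 1.299 and 24.1 ± 0.619 CPM, and LCAT, which esterifies cholesterol in plasma, 7.28 ± 1.89 and 14.5 ± 3.66 CPM (SD, n = 6 each). DGAT1 and LCAT were lower in akr1a1a-/- larvae. Beside these genes, the 4 intestine markers summed to 815.8 to 996.6 CPM in akr1a1a-/- and 581.5 to 898 CPM in ACR samples, 2 of them higher and 0 lower, and their part in the result was not tested.

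In cholesterol and fatty acid synthesis 7 of 47 members were higher and 2 lower (19.1%, against 13.8% of all genes), or 3 and 2 on log2(TPM + 1). edgeR's count was 4 in all without akr1a1a-/- replicate 2 and 5 without ACR replicate 2. srebf2, the regulator of cholesterol synthesis, was at 78.2 to 93.8 CPM (median 84.4) in akr1a1a-/- and 58.9 to 77.3 CPM (median 66.3) in ACR samples (log2 fold change 0.34 ± 0.07, adjusted p = 0.00284), and ELOVL3 was lower (log2 fold change −0.58, adjusted p = 0.00512, or 0.0569 with lane as a covariate). Among complement and coagulation genes 3 of 46 were higher and 9 lower (26.1%, against 13.8% of all genes), or 1 and 8 on log2(TPM + 1). edgeR's count was 7 in all without akr1a1a-/- replicate 5. hpxb, a hemopexin gene, whose product carries heme in plasma, was at 4.74 to 7.81 CPM (median 6.703) in akr1a1a-/-, 10.6 to 15.1 CPM (median 13.1) in ACR and 10.2 to 14.96 CPM (median 11.6) in untreated samples, without overlap (log2 fold change −0.99 ± 0.12, adjusted p = 1.27e-05). c7b, of the complement attack complex, averaged 3.15 ± 0.499 CPM in akr1a1a-/- and 4.75 ± 0.799 CPM in ACR larvae. F13A1 was higher in akr1a1a-/- larvae over all samples (log2 fold change 1.38) but did not pass on lane 3 (adjusted p = 0.104).

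In drug metabolism 6 of 96 members were higher and 9 lower (15.6%, near the 13.8% of all genes), against 4 and 11 on log2(TPM + 1). ABCB11, the bile salt export pump, was at 37.9 to 55.3 CPM (median 48.9) in akr1a1a-/- and 59.8 to 75.3 CPM (median 71.98) in ACR samples (log2 fold change −0.52 ± 0.08, adjusted p = 0.000147). The cytochrome P450 genes cyp1d1 and cyp2x10.2 averaged 22.8 ± 3.88 and 1.76 ± 0.544 CPM in akr1a1a-/- and 35.2 ± 2.77 and 5.23 ± 1.37 CPM in ACR larvae (SD, n = 6 each). Exocrine pancreas genes were higher in 3 of 25 and lower in 0. These 12% were below the 13.8% of all genes called in either direction and above the 6.46% called higher. The elastase gene ela2l was at 171 to 207 CPM (median 186) in akr1a1a-/- and 28.7 to 158 CPM (median 98.5) in ACR samples. The 2 exocrine pancreas markers summed to 682.3 to 851.4 CPM in akr1a1a-/- and 403.1 to 822.3 CPM in ACR samples, 1 of them higher, and their part in the result was not tested. The calls of ela2l, CEL and amy2a (log2 fold changes 1.07, 0.64 and 0.71) were lost with lane as a covariate (adjusted p = 0.302, 0.137 and 0.397), and those of CEL and amy2a on lane 3 (adjusted p = 0.0684 and 0.213). That of ela2l was also lost without any 1 of 6 samples (akr1a1a-/- replicates 2, 3, 4 and 6, ACR replicates 1 and 3, adjusted p of 0.0517 to 0.0734), and that of amy2a without any 1 of 9 (all but akr1a1a-/- replicate 1 and ACR replicates 4 and 5, adjusted p of 0.0528 to 0.114).

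Lysosomal genes were called in 4 of 51 members upward and 5 downward (17.6% against 13.8% of all genes), with 2 higher and 8 lower on log2(TPM + 1). NPC2, a cholesterol carrier of the lysosome (ENSDARG00000096979), was at 0.0514 to 1.33 CPM (median 0.349) in akr1a1a-/- and 2.76 to 8.78 CPM (median 5.28) in ACR samples (log2 fold change −3.32 ± 0.47, adjusted p = 7.74e-05), and lamp1b averaged 55.9 ± 3.36 CPM in akr1a1a-/- and 41.9 ± 3.09 CPM in ACR larvae. CTSB, a cathepsin, was lower in akr1a1a-/- larvae in counts (log2 fold change −0.72, adjusted p = 0.000667) but higher on log2(TPM + 1), at 0.27, where it did not pass (limma, adjusted p = 0.0964).

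Few genes of the vessel wall were called. Of 42 members of the endothelium list, 1 passed (2.4%, against 13.8% of all genes), or 3 on log2(TPM + 1), all lower. The 1 was FLI1 (ENSDARG00000054632), an endothelial transcription factor. It was at 60.2 to 87.7 CPM (median 69.6) in akr1a1a-/- samples, 122.6 to 143 CPM (median 131) in ACR samples and 118 to 145 CPM (median 122) in untreated samples. The groups did not overlap, and the log2 fold change was −0.86 ± 0.08 (adjusted p = 4.58e-07) over all samples and −0.83 on lane 3 (adjusted p = 0.000608). The endothelial markers kdrl and cdh5 did not pass, with log2 fold changes of 0.12 and −0.04. The 3 endothelial markers summed to 141.8 to 165.4 CPM in akr1a1a-/-, 189.6 to 226.9 CPM in ACR and 186.3 to 224.9 CPM in untreated samples, without overlap between akr1a1a-/- and either of the others, and FLI1 was the 1 marker of them that passed. All groups carried the fli1:EGFP transgene.

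Epidermal keratins were more often higher in akr1a1a-/- than in ACR larvae, with 8 of 33 members higher and 2 lower (30.3%, against 13.8% of all genes). krt94 was at 64.1 to 97.6 CPM (median 75.3) in akr1a1a-/-, 34.1 to 51.5 CPM (median 40.1) in ACR and 32.9 to 51.9 CPM (median 41.7) in untreated samples (log2 fold change 0.89 ± 0.12, adjusted p = 2.73e-05). krt5, of the basal layer, differed in pattern, at 2844 to 3283 CPM (median 2940.5) in akr1a1a-/-, 1887 to 2829.8 CPM (median 2155) in ACR and 2838 to 3301 CPM (median 3032) in untreated samples, with every ACR sample below the other groups (adjusted p of ACR against untreated larvae 0.103, log2 fold change of akr1a1a-/- over ACR 0.42 ± 0.08, adjusted p = 0.00167, and adjusted p = 0.0775 on lane 3). The test of krt5 between ACR and untreated larvae did not pair same-numbered samples. krt15 and krt93 averaged 320.5 ± 29.2 and 15.6 ± 1.19 CPM in akr1a1a-/-, 233 ± 31.3 and 11.02 ± 1.32 CPM in ACR and 285 ± 24.4 and 12.9 ± 1.82 CPM in untreated larvae (SD, n = 6 each). Of the 4 epidermal markers, krt5 and cyt1 were higher, and krt4 and epcam did not pass. The 4 summed to 15730 to 21640 CPM in akr1a1a-/-, 11890 to 17220 CPM in ACR and 15790 to 18240 CPM in untreated samples. The untreated range thus lay within the akr1a1a-/- range. The part of epidermal content in these values was not tested. Among collagens and matrix enzymes 8 of 85 were higher and 7 lower (17.6%, against 13.8% of all genes), or 5 and 7 on log2(TPM + 1). COL11A2, of cartilage, was at 319 ± 22.7 CPM in akr1a1a-/- and 247 ± 15.4 CPM in ACR larvae, and col14a1b at 118 ± 10.3 and 151 ± 9.59 CPM.

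The eye lists stayed near or below the share of all genes. Phototransduction genes were higher in 7 of 65 and lower in 2 (13.8%), and on log2(TPM + 1) higher in 3 and lower in 6. RPE65, an enzyme of the visual cycle, was at 169.8 to 217 CPM (median 192) in akr1a1a-/- and 219 to 259 CPM (median 247) in ACR samples (log2 fold change −0.33 ± 0.06, adjusted p = 0.00153, or 0.0539 on lane 3). saga, a rod arrestin, was at 76.1 to 106 CPM (median 89.7) in akr1a1a-/- and 57.6 to 80.2 CPM (median 60.5) in ACR samples (log2 fold change 0.45, adjusted p = 0.00117). It did not pass on lane 3 (adjusted p = 0.0579), and on log2(TPM + 1) the difference was 0.03 (limma, adjusted p = 0.846). In the lens list 1 of 56 members was higher and 1 lower (3.6%), crygm2d17 and crygm2e, with log2 fold changes of 0.45 and −0.87, against 0 higher and 4 lower on log2(TPM + 1). The call of crygm2d17 was lost on lane 3 (adjusted p = 0.0725) and without any 1 of 10 samples (adjusted p of 0.0589 to 0.115), that of crygm2e against ACR replicates 1 to 3 alone (adjusted p = 0.0802), and with akr1a1a-/- replicate 5 left out 8 members of the list were called.

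Stress and growth lists other than those above held few calls, a smaller share in each than the 13.8% of all genes. In the integrated stress response 2 of 32 members were called (6.2%), atf5a and PHGDH. Their log2 fold changes were 0.22 and 0.36, and neither passed on lane 3 (adjusted p = 0.144 and 0.128). On log2(TPM + 1) the list had 0 higher and 2 lower, and PHGDH did not pass without akr1a1a-/- replicate 2 or 5 or ACR replicate 5 (adjusted p of 0.0546 to 0.0598). Of 42 immediate early and glucocorticoid response genes 2 were lower (4.8%), NPAS4 and ier2b. NPAS4 was at 10.3 to 47.5 CPM (median 37.2) in akr1a1a-/- and 47.8 to 88.8 CPM (median 64.9) in ACR samples. ier2b had a log2 fold change of −0.90. Both did not pass on lane 3 (adjusted p = 0.0585 and 0.191), and NPAS4 not without ACR replicate 5 (adjusted p = 0.0534), nor ier2b without any 1 of 8 samples (adjusted p of 0.0641 to 0.0991). In the circadian clock 0 of 51 members were called, with the most abundant, BHLHE40, at 157 to 332 CPM (median 237) in akr1a1a-/- and 181 to 224 CPM (median 207) in ACR samples (adjusted p = 0.287). At an unadjusted p under 0.05 edgeR's test gave 4 of the 51, and limma on log2(TPM + 1) called 2, both lower. Of 48 proteasome genes 1 was called (2.1%), psma2a (log2 fold change −0.19, adjusted p = 0.03), or 3 on log2(TPM + 1), all lower. psma2a did not pass on lane 3 (adjusted p = 0.31). Its call was also lost without akr1a1a-/- replicate 1, 2 or 3 or ACR replicate 1 or 2 (adjusted p of 0.0508 to 0.0772).

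DNA replication and cell cycle genes were higher in 9 of 80 and lower in 0, or 3 and 0 on log2(TPM + 1). The 9 were 11.2% of the list, below the 13.8% of all genes called in either direction and above the 6.46% called higher. The median log2 fold change was 0.14, and 13.8% of the members lay below 0, against 50% of all genes. The count fell to 4 without ACR replicate 2 or 4, and to 5 without ACR replicate 5 or akr1a1a-/- replicate 6. MCM9, a helicase gene, was at 5.57 to 8.66 CPM (median 7.44) in akr1a1a-/- and 3.36 to 5.07 CPM (median 3.83) in ACR samples (log2 fold change 0.84 ± 0.14, adjusted p = 0.000467). RRM2B and E2F4 followed with log2 fold changes of 0.45 and 0.20, and E2F4 did not pass on log2(TPM + 1) (limma, adjusted p = 0.0707).

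With lane as a covariate 1980 of 23223 genes were called, against 3194 without it, and several lists had fewer calls. Fewer calls in a list therefore do not by themselves set it apart from all genes. Counts without the covariate follow in brackets. The heat shock list had 8 (17), insulin receptor signaling 4 (9), aldehyde clearance 3 (5) and cholesterol and fatty acid synthesis 4 (9). Complement and coagulation had 6 (12), phototransduction 5 (9), keratins 4 (10), drug metabolism 9 (15) and the exocrine pancreas 0 (3). The respiratory chain had 29 (29), muscle contraction 22 (30) and the erythroid and heme list 5 (7). The lane 3 comparison gave other counts. There the heat shock list had 8, insulin receptor signaling 4, aldehyde clearance 4 and cholesterol and fatty acid synthesis 5. Complement and coagulation had 6, phototransduction 3, keratins 9, drug metabolism 14 and the exocrine pancreas 3, without CEL and amy2a. The respiratory chain had 27, muscle contraction 24 and the erythroid and heme list 7.

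**Figure D5:**
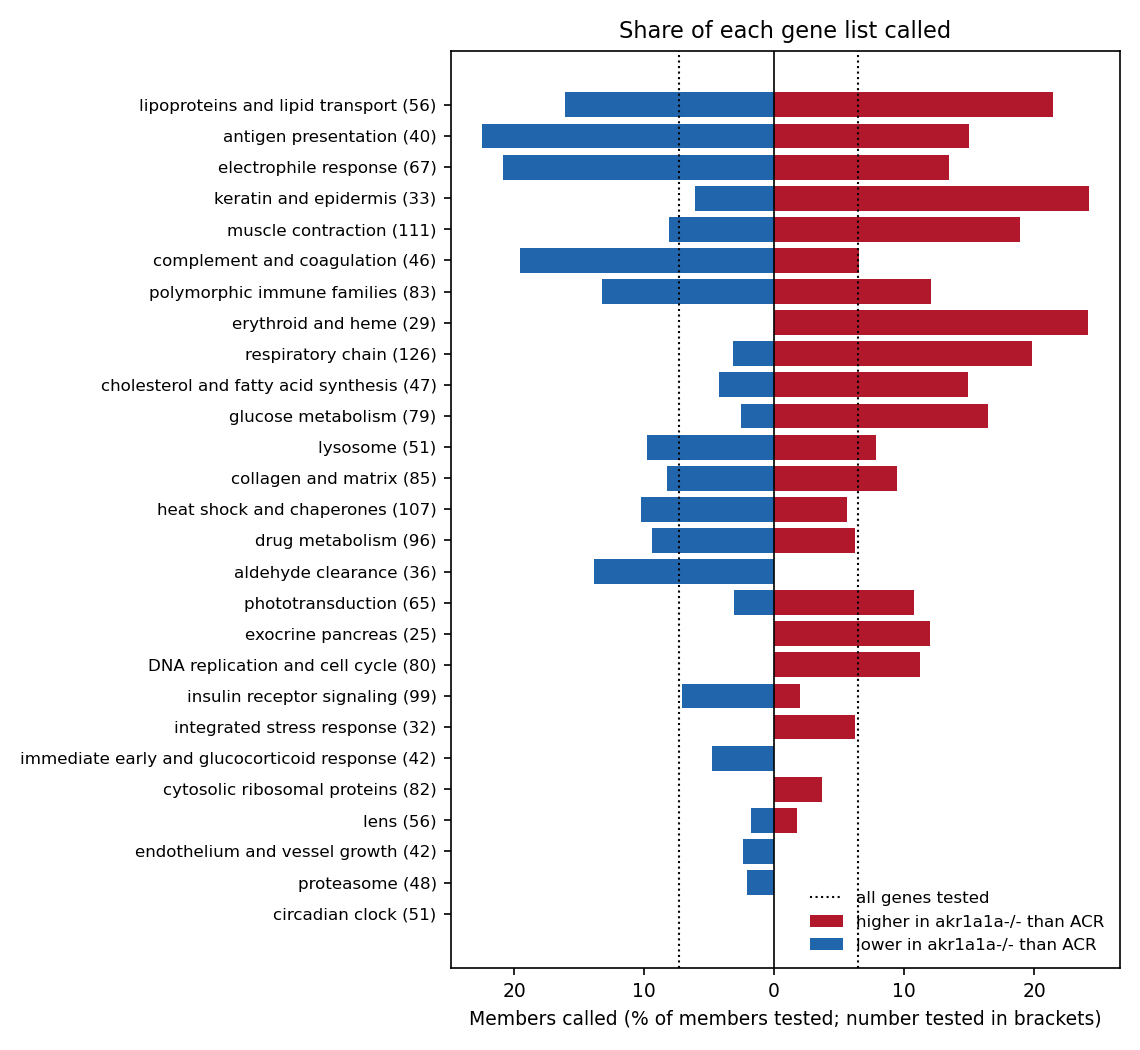
Share of the members of each gene list that was higher (right) or lower (left) in akr1a1a-/- than in ACR larvae at an adjusted p under 0.05, in percent of the members tested, with the number tested in brackets. Dotted lines mark all genes tested, 6.46% higher and 7.29% lower. Lists of lipid transport and antigen presentation have 37.5% of their members called, and the circadian clock list has 0.

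The 3 genes with the smallest adjusted p on lane 3 were ENSDARG00000099056, si:dkeyp-73d8.6 and si:ch211-121a2.2, none with a known role given here. ENSDARG00000099056 was at 1.73 to 2.76 CPM (median 2.05) in akr1a1a-/- and 26.9 to 49.2 CPM (median 42.1) in ACR samples, with ACR samples of lane 2 at 26.9 to 45.6 CPM and of lane 3 at 39.9 to 49.2 CPM. Its log2 fold change on lane 3 was −4.30 (adjusted p = 2.38e-09). si:dkeyp-73d8.6 was at 3.09 to 3.55 CPM in akr1a1a-/- and 19.7 to 22.6 CPM in ACR samples, and si:ch211-121a2.2 at 6.13 to 8.95 CPM in akr1a1a-/- and 33.5 to 62.4 CPM in ACR samples. Untreated samples overlapped the ACR samples in all 3 genes.

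The place of the called genes was described as well. Symbols placed 15102 of the tested genes in RefSeq's order for GRCz12tu, another build than the one used for the counts, so only the order of genes was used. On the chromosome that carries akr1a1a, 18.3% of 870 genes were called, against 12.4% of 14232 genes on other chromosomes. Among the 10 nearest genes on each side 3 of 20 were called (15%), among the 50 nearest on each side 21.0% of 100 genes, and beyond the 100 nearest on each side 18.2% of 669 genes. One other chromosome, 16, reached 19.5%.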

How the data were processed

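Total RNA of pooled whole larvae was sequenced in 18 samples, 6 per group, grouped by genotype and treatment labels. The submitters' processing notes name Trim Galore 0.6.4, kallisto 0.4.6 and GRCz11. The authors deposited estimated counts and TPM values, which are scaled for transcript length, per gene. The estimated counts were rounded to whole numbers, and CPM values use TMM library sizes. Of 32520 gene IDs, 29201 had a symbol in the reference tables, whose capitals are kept here for zebrafish genes.

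Genes that passed filterByExpr were tested with edgeR 4.0.16 (R 4.3.3), with the quasi-likelihood test of akr1a1a-/- minus ACR in 1 model of all 18 samples (15 residual degrees of freedom), Benjamini-Hochberg adjustment over all genes and a threshold of 0.05. This model had no term for the correlation of same-numbered ACR and untreated samples. The SE of a log2 fold change is approximate. Permutation tests ran over all 924 groupings of 6 against 6. Principal components used log2 CPM with a prior count of 2. Alternatives were DESeq2 1.42.0 (size factors and Wald test), limma 3.58.1 on log2(TPM + 1) and log2(TPM + 0.1) of genes at 0.5 TPM or more, other count filters, lane, the replicate block and leaving out each replicate. On simulated counts 84% of genes changed 1.5-fold and 99% of genes changed 2-fold were recovered. The changed genes were drawn from the better counted genes only, and no lane difference was simulated, so scarce genes are not covered.

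The text names akr1a1a, its paralogue and the insulin receptor genes, the 12 largest rises and falls with a symbol, no overlap and a mean log2 CPM of at least 1, up to 3 members per list with the smallest adjusted p, and the first 3 genes of lane 3. Other genes, and the 10 genes of largest change among those with the untreated mean nearer to akr1a1a-/-, were chosen after their values were seen. The members and lists were chosen with earlier results of these data known. Lists match symbols by pattern. The sequencing depth was about equal, and 3 counts correspond to 0.145 to 0.154 CPM. Such floors cover counting error only. No 2 samples agreed within sampling noise. Over all genes, replicate numbers did not pair akr1a1a-/- with ACR samples. In fthl28, fthl29, prdx1, cbr1l and gstp1.2, however, replicates 1 and 2 held the highest values in all 3 groups. Some genes are not reported here.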

Additional observations from a re-analysis of the deposited data

Results flagged for a closer look

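In each group of 6 samples of the genes named, the highest and the lowest sample were compared with the others. In 14 of 270 groups (5.2%) 1 sample lay outside Dixon's limit for its gap to the others, and chance alone flags about 1 in 20 groups.

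Among akr1a1a-/- samples, replicate 1 had 0.741 CPM of akr1a1a against 0.306 to 0.411 CPM in the other 5. It also had 62.3 CPM of lamp1b against 53.4 to 56.3 CPM. Replicate 2 had 77.6 CPM of gstp1.1 against 16.3 to 36.7 CPM, and replicate 4 had 5.64 CPM of hspb15 against 4.7 to 5.04 CPM.

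Among ACR samples, replicate 1 had 134.0 CPM of znf1179 (120.0 to 124.0 CPM in the others), 0.444 CPM of trim35-29 (0.289 to 0.346 CPM), 7.20 CPM of apoa4a (4.58 to 5.42 CPM) and 27.3 CPM of tfr1a (14.4 to 18.2 CPM). Replicate 2 had 11.5 CPM of TIMP4 (5.03 to 7.10 CPM), 1.88 CPM of igflr1 (0.79 to 1.08 CPM), 12.1 CPM of ENSDARG00000116586 (4.39 to 7.15 CPM) and a low value of 1010.0 CPM of tfa (1190.0 to 1270.0 CPM). Replicate 4 had 12.8 CPM of DCXR (6.70 to 8.97 CPM), and replicate 5 had 3.68 CPM of ppa1a (1.08 to 1.68 CPM).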

How the results depend on the processing

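Of 134 named genes 128 were called, and 103 of these also passed on lane 3 with akr1a1a-/- and ACR samples only. Under the alternatives, 94 of the 128 kept their call and direction, 90 of them passing on lane 3 too. CTSB was the 1 called gene to change sign, at 0.271 on log2(TPM + 1) and 0.273 on log2(TPM + 0.1). Of the genes not called, ins turned to −0.013 with lane as a covariate and to −0.012 with ACR replicates 4 to 6 alone, and INSR (ENSDARG00000071524) to 0.072 with ACR replicates 1 to 3 alone and between −0.079 and 0.001 when 1 replicate was left out. With lane as a covariate 1980 genes were called (896 higher, 1084 lower, 7 markers), and with ACR replicates 4 to 6 alone 2050 (949 higher, 1101 lower, 7 markers), which use fewer ACR samples in effect. On log2(TPM + 1) limma called 857 genes higher and 2554 lower, 393 of them at least 2-fold, and on log2(TPM + 0.1) 813 higher and 2548 lower. The cause of this shift was not tested. With only genes of at least 10 counts in every sample, 21107 genes were tested, against 23223. Of 2639 genes called, 266 reached 2-fold, against 681 of 3194. This filter also leaves out genes that are scarce in 1 group. Leaving out 1 replicate gave 2728 to 3231 genes in all. The fit of only the akr1a1a-/- and ACR samples called 2764 genes (1310 higher, 1454 lower). The fit with a replicate block called 4229 genes over all samples and 2650 over akr1a1a-/- and ACR samples, where INSR (ENSDARG00000011948) did not pass (adjusted p = 0.0748). Same-numbered akr1a1a-/- and ACR samples correlated at 0.045 on average (−0.04 to 0.099), and 2 of 6 correlated best with their own number, so the block adds no pairing known from the labels. Lane and group cannot be told apart for akr1a1a-/- against untreated larvae. Positions in GRCz11 were not analysed here.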

Other observations

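Same-numbered ACR and untreated samples shared extremes in single genes. ptgr1.1 was lowest in replicate 2 of both groups, at 14.3 CPM in the ACR and 11.5 CPM in the untreated sample. The deviations of same-numbered ACR and untreated samples from their group means correlated at 0.445 on average over genes, which are not independent replicates, and all 6 pairs correlated best with their own number.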
